A study of Homo sapiens with 6 samples.

Results

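Collagens and the enzymes that modify them were read from RNA-seq of a human cell line with and without an shRNA against DCAF1. The members were the protein-coding rows whose name begins with COL, a number and A, plus 13 enzymes and chaperones chosen by name: PXDN, LOX, LOXL1 to LOXL4, PLOD1 to PLOD3, P4HA1 to P4HA3 and SERPINH1. They came to 44 of the 21494 genes in the table, made up of 31 collagen chains and all 13 enzymes. The 6 samples are labelled as G361, a melanoma line, with 3 samples of a control shRNA (shControl, genotype WT) and 3 of an shRNA against DCAF1 (shDCAF1, genotype DCAF1 knockdown). DCAF1, also called VprBP, is a substrate receptor of a ubiquitin ligase and is described by the study as a histone kinase, and the comparison asks which transcripts differ between the groups so labelled. Cells of both groups had received lentiviral shRNA and puromycin selection, and no source used here says whether the replicates were separate cultures, so p-values measure only the spread between these samples.

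Collagens are trimers of chains that share a long Gly-X-Y repeat. Prolyl hydroxylases stabilise the helix inside the endoplasmic reticulum, lysyl hydroxylases prepare lysines for crosslinks, the chaperone HSP47 (SERPINH1) escorts the folded trimer, and the lysyl oxidases and peroxidasin crosslink the product outside the cell. Fibrillar chains form the ropes of connective tissue, collagen IV forms the sheet of basement membranes, collagen VII anchors that sheet to the tissue below it, and collagen XVII ties epithelial cells to it from within the hemidesmosome.

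The groups stood far apart over the whole transcriptome, which bears on every value below. The total of estimated counts ran from 18195926 to 26883925 per sample. Pearson's r of log2 normalized counts across 16756 genes, which are not replicates, was 0.985 to 0.994 within groups and 0.652 to 0.66 between them, and mitochondrial genes took 1.96% to 1.98% of counts in shControl and 4.1% to 4.48% in shDCAF1. The targeted gene had 688, 893 and 884 counts in shControl and 681, 488 and 628 in shDCAF1, which is 869 ± 90.6 against 583 ± 154 normalized counts (SD, n = 3 in each group here and below). Its log2 fold change was -0.58 (SE 0.17, adjusted p = 0.0125), short of a 2-fold change, and an exact two-sided permutation test gave p = 0.1, the smallest that 3 against 3 samples allow. The shDCAF1 replicate 1 had 760 normalized counts, near the lowest shControl sample at 797. As a level per base of transcript, the groups overlapped, with 21.4 in that replicate against 20.3, 24.8 and 21.3 in shControl. The label gives LD611 as the source of the cells in every sample and G361 as the line, and the melanocyte markers were low in both groups, with MITF at 154 to 312 counts, PMEL at 28 to 46, MLANA at 1 to 5, TYRP1 at 0 to 4, and TYR, DCT and SOX10 not analysed here. Some markers of other lineages were present in every sample of a group and at 0 in the other. The urothelial UPK1B had 500, 641 and 709 counts against 0, and the breast luminal SCGB2A2 had 0 against 5738, 4223 and 6132 counts. Their lists were mixed. The urothelial KRT5 (log2 fold change -4.22) and UPK2 (-2.25) were lower, but GATA3, held by both lists, had 7, 1 and 0 counts against 1580, 1334 and 1873. The breast luminal KRT8 was higher (1.04), but ESR1 (-0.61) and ELF3 (-0.37) were lower. A difference in the cells themselves cannot be told apart from the shRNA in this design, so each fold change below is a difference between the labelled groups.

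The large majority of the collagen module was lower in shDCAF1. Of the 40 members that passed the filter on low counts, 29 (72.5%) were called lower and 7 (17.5%) higher, where a call needed an adjusted p under 0.05 and a change of more than 2-fold. Over all 16756 genes tested 46.4% were called, 22% lower and 24.5% higher. These shares are the background for each count of calls below. Among the chains 20 of 27 were called lower and 5 higher, and among the enzymes 9 of 13 were called lower and 2 higher. The median log2 fold change was -2.67 for the members, -3.76 for the chains and -1.51 for the enzymes, beside 0.08 over all genes, and with genes at 0 counts set at their bound the chain median was -3.30. The 3 shControl values of normalized counts did not overlap the 3 shDCAF1 values in any of the 40 members, which held for 79.5% of all genes tested. COL1A1, COL9A2, LOXL3 and SERPINH1 were not called, and COL2A1, COL9A3, COL26A1 and COL28A1 had too few counts to be tested. A further 13 chains of the list, COL3A1 and COL6A3 among them, have no row and were not analysed here. Bulk RNA cannot tell fewer expressing cells from less RNA per cell.

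**Figure D1:**
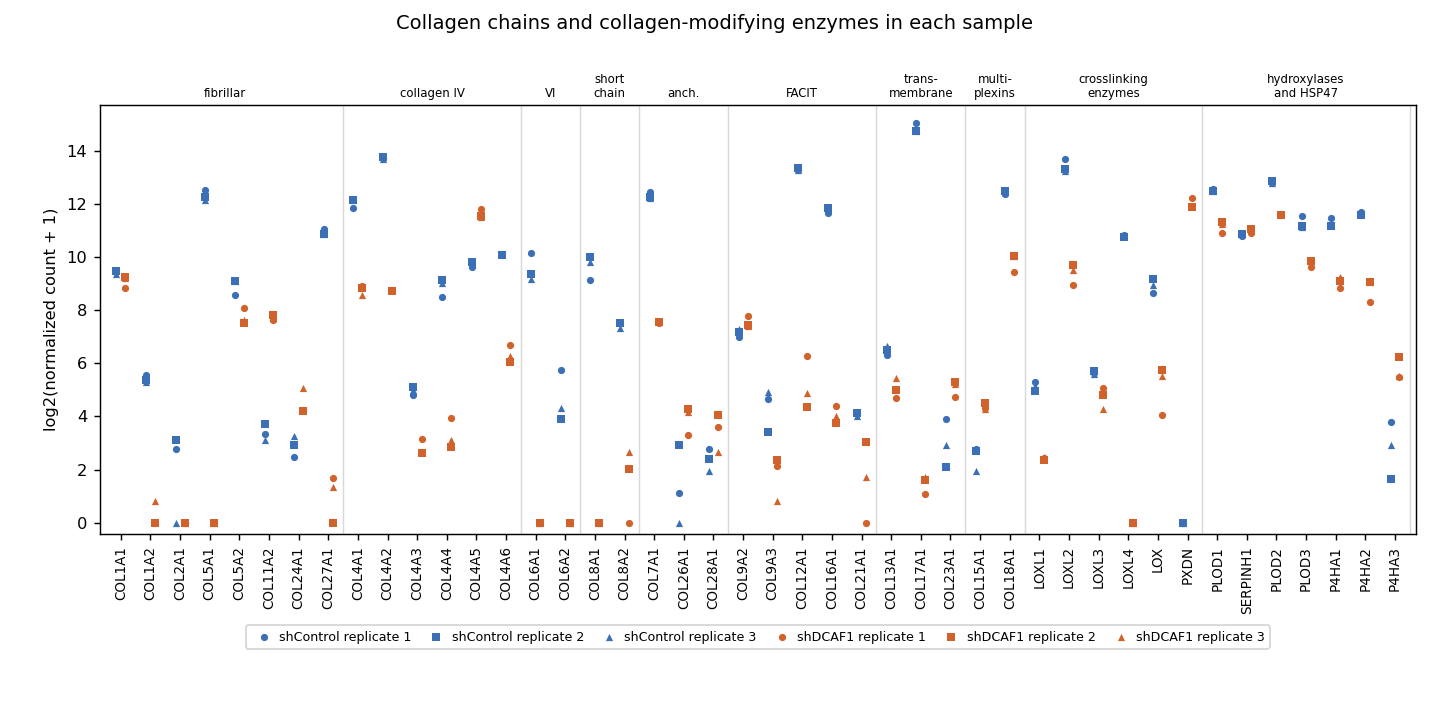
Normalized counts of the 44 members in each of the 6 samples, on the axis as log2 of the count plus 1, grouped along the top by collagen type (VI, beaded filament chains; anch., anchoring fibril and related) and enzyme class. Blue points are shControl, orange points shDCAF1, and the symbol gives the replicate. COL17A1 stands highest in shControl and near 0 in shDCAF1, and PXDN is the member at 0 in shControl and high in shDCAF1.

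**Figure D2:**
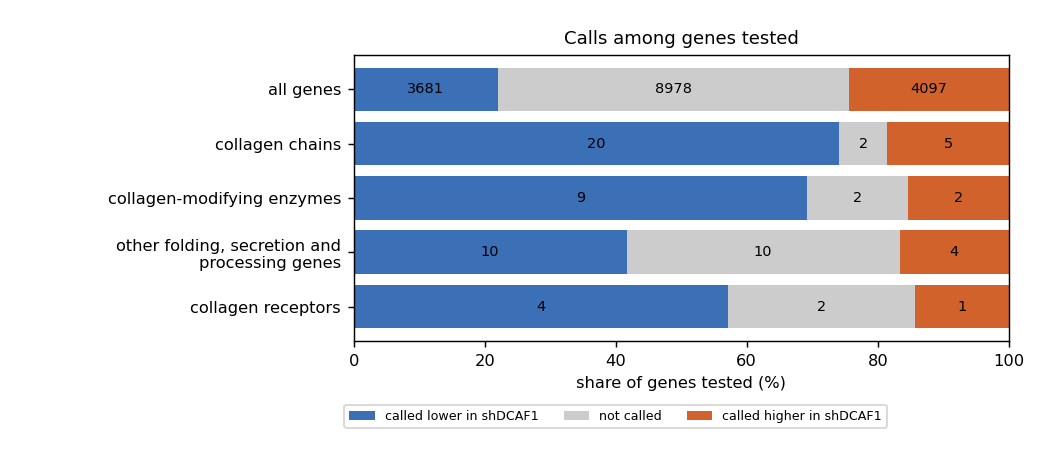
Share of the tested genes called lower or higher in shDCAF1, in percent, for all genes, the collagen chains, the enzymes, the other folding, secretion and processing genes and the collagen receptors, with the number of genes written in each bar. The chains (74.1% lower) and the enzymes (69.2% lower) lie above the 22% of all genes.

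Several members fell to the floor of detection. COL17A1, COL5A1, COL6A1, COL8A1, COL27A1 and LOXL4 had at most 3 counts in every shDCAF1 sample and averaged 100 normalized counts or more in shControl, which is 6 of 40 (15%) where 2.43% of all genes tested showed this. The reverse held for PXDN alone among the members (2.5%) and for 0.943% of all genes. A floor of 3 counts stood for between 2.3 and 3.48 normalized counts in the 6 samples and covers counting error only.

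The sequence upstream of 3 of these genes is shown for the most abundant chain of shControl, for a fibrillar chain at 0 counts, and for the collagen IV chain that went against its neighbour. Each window is the 250 bases before the RefSeq start site on GRCh38.p14, written 5′ to 3′ on the strand of the gene, with matches in capitals to any of 4 motifs on either strand. These were the core of the TATA box, spelled TATAAA, the box bound by NF-Y, spelled CCAAT, the GC box bound by Sp1, spelled GGGCGG, and the AP-1 site, spelled TGANTCA; none of the printed matches overlap. The windows lie at chr10:104085881-104086130 on the minus strand for COL17A1, at chr9:134641553-134641802 on the plus strand for COL5A1 and at chrX:108439588-108439837 on the plus strand for COL4A5.
COL17A1: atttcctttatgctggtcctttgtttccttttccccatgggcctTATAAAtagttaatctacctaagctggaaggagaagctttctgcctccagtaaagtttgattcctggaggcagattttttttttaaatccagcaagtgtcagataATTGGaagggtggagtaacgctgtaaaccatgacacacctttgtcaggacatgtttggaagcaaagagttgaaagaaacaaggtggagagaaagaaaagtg
COL5A1: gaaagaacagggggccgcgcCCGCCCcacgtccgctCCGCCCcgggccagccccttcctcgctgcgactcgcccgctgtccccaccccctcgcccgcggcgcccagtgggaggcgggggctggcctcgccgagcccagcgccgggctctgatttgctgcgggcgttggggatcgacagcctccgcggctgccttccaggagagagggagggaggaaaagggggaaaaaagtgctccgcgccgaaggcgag
COL4A5: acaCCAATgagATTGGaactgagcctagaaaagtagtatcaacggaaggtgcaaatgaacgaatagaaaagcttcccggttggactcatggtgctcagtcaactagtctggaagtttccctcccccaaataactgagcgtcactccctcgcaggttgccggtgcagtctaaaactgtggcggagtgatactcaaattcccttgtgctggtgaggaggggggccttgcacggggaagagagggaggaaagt
The COL17A1 window held a TATA core 206 bases before the start and a CCAAT box 101 bases before it, and it was poor in CpG, with 1 CpG and 40.4% GC. The COL5A1 window held 2 GC boxes, 29 CpGs and 74% GC. The COL4A5 window held 2 CCAAT boxes, 8 CpGs and 51.2% GC, and its far end reaches toward COL4A6, which starts 341 bases away on the other strand by the deposited coordinates. From the RefSeq starts, which place COL4A6 elsewhere, the windows of both genes share 121 bases. Both CCAAT boxes lie in the shared stretch and so belong to the COL4A6 window too.

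Across the 35 members with a promoter in the RefSeq table, 21 (60%) held a GC box, against 42.6% of all 35116 promoters of the same length. Each member was read at its first listed promoter, but the 35116 promoters were not cut to the first of each gene or to protein-coding genes. The sets are therefore unlike, and whether the shares below are a trait of collagen genes was not tested. A CpG-rich window (GC over 50% and observed over expected CpG above 0.6) was found for 23 members (65.7%), against 44.8%, and the median GC content was 69.2% against 58%. The TATA core was found in 5 members (14.3%, against 10.7%) and the CCAAT box in 10 (28.6%, against 32%). All 5 with a TATA core were among the 24 called lower, which make up most of the 35 members. It was in 0 of the 6 called higher and 0 of the 3 not called, too few to compare. In the same order of 24, 6 and 3 members, the GC box was in 17, 3 and 1. The CCAAT box was in 7, 2 and 0, and the window was CpG-rich in 16, 4 and 2. A match could lie anywhere in the 250 bases. The letters of the AP-1 site were in 0 of the 35 windows and in 6.57% of all promoters. These are counts of letters in a window and not of bound sites. The windows of COL17A1 and COL5A1, both at or near 0 in shDCAF1, differed in composition, at 40.4% and 74% GC. Of the other members at the floor, LOXL4 had 86.4% GC and COL27A1 64.4%, and COL6A1 and COL8A1 had no window. Whether composition goes with the difference between groups was not tested.

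Collagen XVII was the dominant chain of the control cells. COL17A1 (ENSG00000065618.21, chr10:104031286-104085880, minus strand, hg38), the transmembrane collagen of the hemidesmosome, had 29204, 25132 and 28462 counts in shControl and 1, 2 and 3 counts in shDCAF1. Every shControl sample was thus far above every shDCAF1 sample, which were at or under the floor. Its log2 fold change was -13.83 (SE 0.21, adjusted p = 2.47e-10), the lower group resting on 6 counts in all. The other transmembrane chains were scarce. COL13A1, a collagen of neuromuscular and other adhesion sites, had 67, 83 and 104 counts against 22, 30 and 55 and was called lower (log2 fold change -1.42, SE 0.26, adjusted p = 6.16e-04), but not in a test against a 2-fold change (adjusted p = 0.0507). COL23A1 had 12, 3 and 7 counts against 23, 37 and 47 and was called higher (2.08, SE 0.45, and 2.70 without shControl replicate 1).

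The fibrillar chains split. Of the 7 tested, 4 were called lower, 2 higher and 1 was not called. COL5A1, whose chain helps set the diameter of collagen I fibrils, had 5061, 4448 and 4815 counts in shControl and 0 in all 3 shDCAF1 samples, at least 1741-fold lower. Its partner chain COL5A2 stayed expressed, at 326, 506 and 580 counts against 242, 174 and 259, with all shDCAF1 samples below all shControl samples. Its log2 fold change of -1.19 (SE 0.20, adjusted p = 3.38e-04) lay near the 2-fold threshold and missed it under scaling by library size alone (-0.98) and in a test against a 2-fold change (adjusted p = 0.151).

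Collagen I showed the same kind of split between its chains. COL1A1 had 603, 659 and 693 counts against 407, 577 and 768, which is 691 ± 30.5 against 548 ± 80.8 normalized counts (log2 fold change -0.33, SE 0.13, adjusted p = 0.0343), and was not called. COL1A2, the second chain of the usual collagen I trimer, had 40, 37 and 40 counts against 0, 0 and 1, a ratio of 130-fold (exact 95% interval 23 to 5194, counting error only). Without shDCAF1 replicate 3, which held that count, it was at least 12.8-fold lower. Per length, COL1A1 already exceeded COL1A2 by 18.1, 21.4 and 20.8 times in the 3 shControl samples.

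The remaining fibrillar chains lay at both ends of the range. COL27A1, a cartilage fibrillar chain, had 1850, 1726 and 1982 counts in shControl and 2, 0 and 2 in shDCAF1 (log2 fold change -10.47, SE 0.25). COL11A2, a cartilage chain of the collagen XI trimer, went the other way, with 8, 11 and 8 counts against 176, 214 and 269, or 9.6 ± 2.21 against 208 ± 13.1 normalized counts. Its log2 fold change of 4.43 (SE 0.23, adjusted p = 1.25e-07) was the largest rise among the chains. COL24A1 was called higher at low counts (4, 6 and 9 against 16, 17 and 43), and COL2A1, with 5, 7 and 0 counts against 0 in every sample, was not tested.

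All 6 collagen IV chains were measured, and 5 were called lower and 1 higher. COL4A1 and COL4A2, which form the basement membrane network of nearly every tissue, had 3146, 4147 and 4753 against 434, 437 and 496 counts, and 11614, 12587 and 13885 against 374, 407 and 568 counts. COL4A2 fell from 13436 ± 260 to 425 ± 9.15 normalized counts (log2 fold change -4.98, SE 0.09, adjusted p = 3.52e-10) and COL4A1 from 4220 ± 497 to 440 ± 53.7 (-3.27, SE 0.13, adjusted p = 2.11e-08). In both genes the groups were separated by several times the spread within either group. COL4A4, a chain of the specialised network of glomerulus and lung, had 311, 516 and 551 counts against 13, 6 and 10 (-5.69, SE 0.30). Its partner COL4A3 was scarce throughout, at 23, 31 and 33 counts against 7, 5 and 7 (-2.32, SE 0.34).

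COL4A5 and COL4A6 diverged. COL4A5 (ENSG00000188153.14, chrX:108439838-108697545, plus strand) had 681, 823 and 982 counts in shControl and 3181, 2839 and 3797 in shDCAF1, and rose from 872 ± 73.6 to 3137 ± 359 normalized counts (log2 fold change 1.85, SE 0.11, adjusted p = 2.89e-07). COL4A6 (chrX:108155607-108439497, minus strand) had 942, 998 and 1173 counts against 92, 62 and 100, and fell from 1096 ± 14.1 to 81.3 ± 19.6 (-3.76, SE 0.16, adjusted p = 3.41e-08). As a level per base of transcript, COL4A5 was below COL4A6 in every shControl sample (11.7, 13.3 and 13.7 against 20.7, 20.6 and 21). In every shDCAF1 sample COL4A5 was far above COL4A6.

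The 3 collagen IV pairs are encoded head to head, and in each pair the ratio of the first to the second gene shifted the same way. Ratios were taken per length, from the counts of both genes in the same sample. COL4A5 over COL4A6 was 0.565, 0.645 and 0.655 in shControl and 27, 35.8 and 29.7 in shDCAF1, a shift of 5.63 on the log2 scale. COL4A3 over COL4A4, whose start sites lie 171 bases apart, was 0.0712, 0.0578 and 0.0576 against 0.518, 0.802 and 0.674 (3.40 on the log2 scale). The shDCAF1 ratios of this pair rest on 7, 5 and 7 counts over 13, 6 and 10, near the floor of 3 counts. COL4A1 over COL4A2 was 0.356, 0.433 and 0.45 against 1.53, 1.41 and 1.15 (1.72 on the log2 scale). In none of the pairs did the ratios of the groups overlap, and each exact two-sided permutation test gave p = 0.1, the smallest possible with 3 against 3. COL4A1 and COL4A2 overlap at their starts, which lie 1345 bases apart by the deposited coordinates. Whether counting used strand is not stated, so reads from that stretch may be assigned to either gene.

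**Figure D3:**
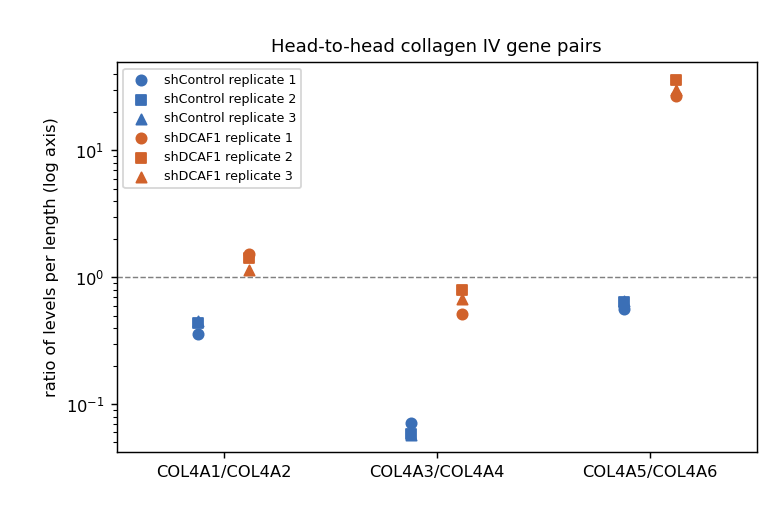
Ratio of the first to the second gene of each head-to-head collagen IV pair, per length, in each of the 6 samples on a log axis. The 3 shDCAF1 points lie above the 3 shControl points in every pair, and for COL4A5 over COL4A6 the ratio passes from below 1 to 27 or more.

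Collagen VI and the short chain networks were at or near 0 counts in shDCAF1. COL6A1, a chain of the beaded microfibril, had 982, 603 and 604 counts in shControl and 0 in each shDCAF1 sample, at least 270-fold lower. Its shControl values varied most of all members averaging 100 or more normalized counts, with a coefficient of variation of 38.7% where the median of these 27 members was 8.12%. COL6A2, 93.1 kb away on chromosome 21, had 46, 13 and 20 counts against 0 in each sample, at least 9.86-fold lower, or at least 5.66-fold without shControl replicate 1. COL8A1, a chain of the hexagonal network under endothelium and cornea, had 478, 944 and 934 counts against 0 in each sample, at least 281-fold lower, and COL8A2 had 159, 169 and 168 counts against 0, 3 and 7 (log2 fold change -5.76, SE 0.42, and -6.66 without shDCAF1 replicate 3). Replicate 1 was the highest of the shControl samples for COL6A1 and the lowest for COL8A1.

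Of the anchoring fibril group only COL7A1 was tested, and it was called lower. COL7A1, the anchoring fibril collagen, had 4738, 4490 and 4983 counts against 161, 180 and 242, and fell from 5032 ± 405 to 184 ± 3.84 normalized counts (log2 fold change -4.77, SE 0.10, adjusted p = 8.51e-10). Its shDCAF1 samples were the least variable among the 17 members averaging 100 or more normalized counts in that group, with a coefficient of variation of 2.08%. COL26A1 had 1, 6 and 0 counts against 8, 18 and 22, and COL28A1 had 5, 4 and 3 against 10, 15 and 7, too few to be tested.

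Among the fibril-associated collagens, which sit on fibril surfaces, 3 of 4 tested were called lower and none higher. COL12A1, found in dense connective tissue and under tension, had 8453, 9636 and 10452 counts against 69, 19 and 37, or 10061 ± 363 against 41.7 ± 30.9 normalized counts (log2 fold change -7.96, SE 0.34, adjusted p = 3.56e-08, and -8.67 without shDCAF1 replicate 1). COL16A1 had 2787, 3332 and 3749 counts against 18, 12 and 20 (-7.76, SE 0.15, adjusted p = 5.16e-10). Both genes left a trace above the floor in every shDCAF1 sample, in which they differ from COL17A1 and COL5A1. COL21A1 was called lower at 14, 15 and 16 counts against 0, 7 and 3 (-2.28, SE 0.64, and -3.46 without shDCAF1 replicate 2). COL9A2 had 110, 131 and 162 counts against 197, 166 and 221 and a log2 fold change of 0.40 (SE 0.17, adjusted p = 0.0487), too small to be called, and COL9A3 had 9 to 31 counts against 1 to 4.

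The 2 multiplexins, basement membrane proteoglycans whose ends are cut off as endostatin-like fragments, differed in direction. COL18A1 had 4573, 5182 and 5914 counts against 622, 995 and 1382, and fell from 5513 ± 185 to 929 ± 204 normalized counts (log2 fold change -2.57, SE 0.15, adjusted p = 2.87e-07). COL18A1 overlaps SLC19A1, which had 883, 946 and 1002 counts against 1141, 1342 and 1927. Strand use in counting is not stated, so the overlap may add reads of either gene to the other. COL15A1 rose at the low end, from 3 to 5 counts to 17 to 24 counts (2.07, SE 0.39, adjusted p = 8.74e-04).

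**Figure D4:**
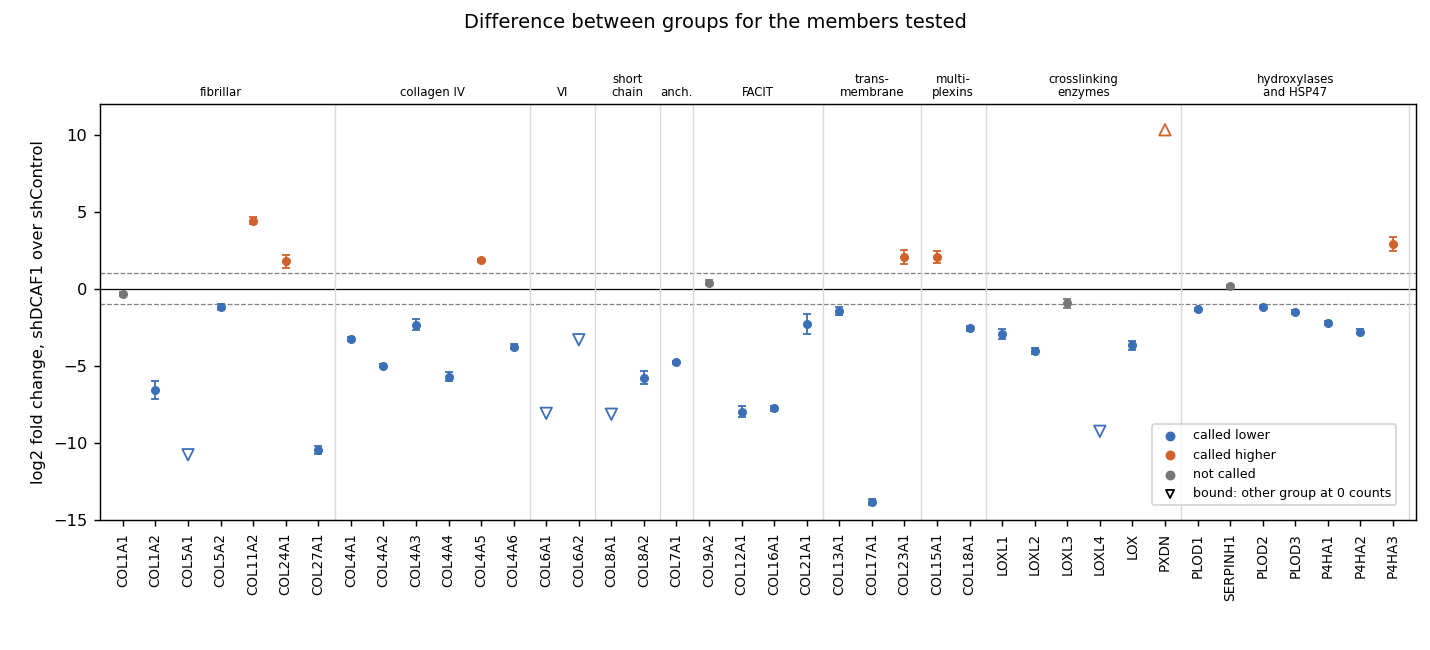
Log2 fold change of shDCAF1 over shControl for the 40 tested members, with bars of 1 SE, in the same order of groups. Open triangles mark genes with 0 counts throughout the other group, drawn at their bound against 3 counts, and dashed lines mark a 2-fold change. COL17A1 lies lowest at -13.83, and 7 members lie above the upper dashed line.

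The make-up of the collagen transcripts changed along with their amount. Levels per length were computed from the counts as TPM (a level per base of transcript, scaled to the same total in each sample) with GENCODE 44 exon lengths. The 31 chains summed to 1613, 1459 and 1416 TPM in shControl and to 128, 122 and 119 TPM in shDCAF1, a level 12.2-fold lower. The 13 enzymes summed to 1031 ± 93.4 against 353 ± 17.1 TPM, 2.92-fold lower. Neither sum overlapped between the groups.

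In shControl, COL17A1 led with 739 ± 97.4 TPM and made up 49.3% of the chain level, with 47.3% to 52.8% in the 3 samples. COL4A2 followed with 123 ± 2.77 TPM and COL18A1 with 115 ± 3.9 TPM, whose values did not overlap (120 to 125 against 110 to 117 TPM), and then COL12A1 with 93.8 ± 3.64, COL5A1 with 80.2 ± 10.9 and COL7A1 with 79.5 ± 6.45 TPM. COL5A1 and COL7A1 differed by less than their spread. In shDCAF1 the lead passed to COL4A5 with 50.5 ± 6.71 TPM, which was 41% of the chain level (38.6% to 45.6%) where it had been 0.869% in shControl. COL18A1 followed with 20.9 ± 4.27 TPM, COL1A1 with 11.6 ± 1.55 and COL9A2 with 8.49 ± 1.44, while COL4A1 (5.73 ± 0.804), COL5A2 (5.65 ± 1.33) and COL11A2 (5.39 ± 0.318) differed by less than their spread. COL17A1 was 0.0408% of the chain level in shDCAF1.

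By type, the collagen IV chains went from 14.4% to 50.6% of the chain level and COL1A1 from 0.904% to 9.46%. These shares rose on a smaller total: the summed collagen IV level was 214 ± 8.98 TPM in shControl and 62.3 ± 7.87 TPM in shDCAF1, and that of COL1A1 was 13.5 ± 0.637 and 11.6 ± 1.55 TPM.

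**Figure D5:**
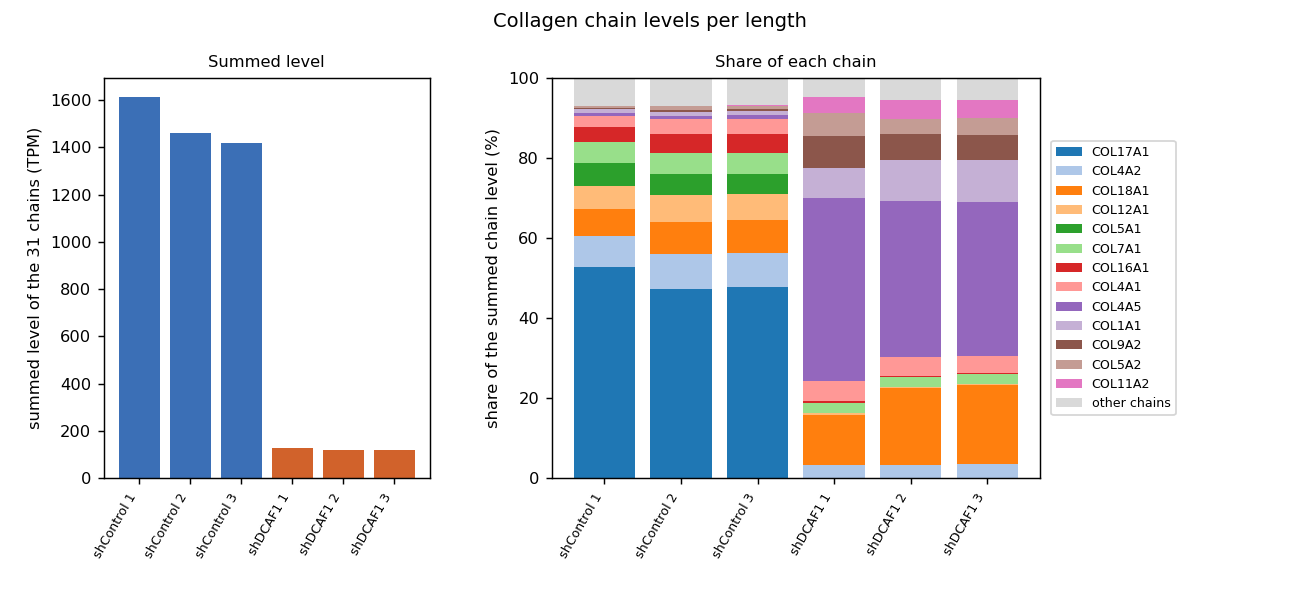
Summed level of the 31 collagen chains per length in each of the 6 samples, in TPM computed from the counts (left), and the share of that sum taken by each of the leading chains, in percent (right). COL17A1 makes up 49.3% of the level on average in shControl and COL4A5 makes up 41% in shDCAF1.

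Of the 6 crosslinking enzymes, 4 were called lower, 1 higher and 1 was not called, beside 22% lower and 24.5% higher over all genes tested. LOXL2, a lysyl oxidase that acts on collagen IV, had 11453, 9332 and 10128 counts against 437, 797 and 941, and fell from 11007 ± 1983 to 679 ± 174 normalized counts (log2 fold change -4.02, SE 0.21, adjusted p = 1.25e-07). LOXL4 had 1572, 1592 and 1858 counts against 0 in each sample, at least 606-fold lower. LOX, the founding lysyl oxidase, had 344, 527 and 513 counts against 14, 51 and 58 (-3.66, SE 0.31, adjusted p = 3.83e-06). The shDCAF1 samples lay below the shControl samples for each of these, and replicate 1 was the lowest shDCAF1 sample for LOX and LOXL2. LOXL1 was scarce and fell from 28 to 36 counts to 4 to 6 counts. LOXL3 had 42, 47 and 50 counts against 29, 26 and 24 (-0.94, SE 0.28, adjusted p = 0.0124) and was not called, though it was with TMM factors (-1.03) and DESeq2 (-1.06), and without shDCAF1 replicate 1 (-1.13).

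PXDN, peroxidasin, which forms the sulfilimine crosslinks of collagen IV, was the exception among these enzymes. PXDN (ENSG00000130508.11, chr2:1631887-1744852, minus strand) had 0 counts in all 3 shControl samples and 4208, 3624 and 5026 counts in shDCAF1, at least 1285-fold higher. It had 69.6 ± 9.94 TPM in shDCAF1, above LOXL2 there (21.6 ± 5.34 TPM).

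The hydroxylases and the chaperone had a median log2 fold change of -1.33, beside -3.29 for the crosslinking enzymes. In this group of 7, 5 were called lower, 1 higher and 1 was not called, beside 22% lower and 24.5% higher over all genes. P4HA1 and P4HA2, the catalytic subunits of collagen prolyl 4-hydroxylase, had 2408, 2112 and 2473 against 404, 526 and 794 counts, and 2881, 2790 and 3276 against 282, 514 and 699 counts. The log2 fold changes were -2.21 (SE 0.13, adjusted p = 2.96e-07) and -2.77 (SE 0.18, adjusted p = 6.19e-07), and in both the shDCAF1 samples lay well below the shControl samples. P4HA3, the rarest catalytic subunit here, had 11, 2 and 7 counts against 39, 71 and 59 and was called higher (2.91, SE 0.48, adjusted p = 3.60e-04, and 3.54 without shControl replicate 1). P4HA3 overlaps PPME1, which had 1104, 1241 and 1444 counts against 3024, 3414 and 4849 and was called higher (1.41). Strand use in counting is not stated, so reads from the overlap may be assigned to either gene. The same limit holds for P4HA2, which overlaps PDLIM4.

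The 3 lysyl hydroxylases were all called lower by amounts close to each other. PLOD1, which acts on helical lysines, had 5185, 5233 and 5954 counts against 1727, 2454 and 3168 (log2 fold change -1.33, SE 0.11). PLOD2, which acts on the telopeptide lysines, had 6054, 6739 and 7392 counts against 2839, 2908 and 4036 (-1.20, SE 0.07). PLOD3, which also adds sugars to hydroxylysine, had 2558, 2097 and 2349 counts against 702, 880 and 1213 (-1.51, SE 0.13). The groups did not overlap in any of them, although PLOD2 missed the 2-fold threshold under scaling by library size alone (-0.99). SERPINH1, the collagen chaperone, had 1526, 1718 and 1976 counts against 1704, 2044 and 2867, or 1837 ± 58.8 against 2075 ± 154 normalized counts (0.18, SE 0.08, adjusted p = 0.0818), and was not called. It had more normalized counts than the other 3 members not called.

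The other genes of collagen folding, secretion and processing were called in both directions or not called. Of the 24 tested, 10 were called lower (41.7%), 4 higher (16.7%) and 10 were not called, beside 22% lower and 24.5% higher over all genes. Their median log2 fold change was -0.57. Among those lower were SPARC, a collagen-binding matricellular protein, with 5584, 6526 and 7458 counts against 0, 0 and 1. P3H2, a prolyl 3-hydroxylase active on collagen IV, fell from 3876 ± 915 to 11.2 ± 7.84 normalized counts (-8.47, SE 0.33), and BMP1, the procollagen C-proteinase, from 6512 ± 753 to 1049 ± 60.5 (-2.63, SE 0.11). The coat proteins that carry procollagen out of the endoplasmic reticulum, SEC23A (-1.75, SE 0.09) and SEC24D (-1.21, SE 0.09), and the cyclophilin PPIB (-1.25, SE 0.07) fell by smaller amounts, and TLL1, TLL2, P3H3 and PCOLCE2 were the other genes called lower.

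CREB3L1, a transcription factor known to act on collagen I genes, was among the 4 called higher, with 3, 3 and 7 counts in shControl and 135, 330 and 408 in shDCAF1 (log2 fold change 5.85, SE 0.45). The others were ADAMTS3, TMEM38B and COLGALT2. P4HB, the disulfide isomerase subunit of prolyl 4-hydroxylase, had 28281 ± 885 against 19548 ± 1740 normalized counts (-0.53, SE 0.09) and was not called, as were P3H1, CRTAP, COLGALT1, MIA3, KDELR2, FKBP14, PCOLCE, P3H4 and ADAMTS14.

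Of the 7 collagen receptors tested, 4 were called lower, 1 higher and 2 were not called. ITGA2, the alpha subunit of the main epithelial collagen receptor, had 9741, 7004 and 8019 counts against 293, 260 and 309 (log2 fold change -5.00, SE 0.20), ITGA1 had 647, 627 and 781 counts against 1, 0 and 2, and their shared beta subunit ITGB1 fell from 27464 ± 3378 to 4056 ± 195 normalized counts (-2.76, SE 0.11). MRC2, an endocytic collagen receptor, also fell (-4.75, SE 0.15). The discoidin receptor DDR1 had 18411 ± 1597 against 21231 ± 3501 normalized counts (0.21, SE 0.13, adjusted p = 0.164), and DDR2 was scarce and not called. ITGA10 rose at low counts, from 4 to 7 in shControl to 24 to 29 in shDCAF1. Both lists together had 14 of 31 genes called lower (45.2%) and 5 higher (16.1%), beside 22% lower and 24.5% higher over all genes tested.

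The nearest protein-coding genes in the table on either side of each member were read from the same fit, with 22% of all genes called lower and 24.5% higher as the background. Around the 29 members called lower there were 51 flanking genes, of which 47 were tested, and 14 of these were called lower, 10 higher and 23 were not called. SLK, which ends 2053 bases from COL17A1, had 2448 normalized counts in shControl and 1330 in shDCAF1 (log2 fold change -0.88, not called), and SFR1 on the other side was called lower (-1.36). COL18A1, 468 kb from COL6A1 on chromosome 21, kept 622 to 1382 counts in shDCAF1 where COL6A1 had 0. The COL18A1 counts are subject to its overlap with SLC19A1. Around the 6 members at the floor in shDCAF1, 7 of 10 tested flanking genes were called lower, 0 were called higher and 3 were not called.

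Around the 7 members called higher, 7 of 11 tested flanking genes were called higher, 1 lower and 3 were not called. PDLIM4, which lies within the span of P4HA2 on the other strand, had 1214, 1225 and 1459 counts in shControl and 0 in each shDCAF1 sample, where P4HA2 kept 282 to 699 counts.

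Some markers of other cell types differed between the groups, and their part in the collagen results was not tested. The background for the calls in these short lists is 22% of all genes tested called lower and 24.5% higher. The fibroblast list had 5 of 7 genes with a row, and its summed counts were 3014 to 3426 in shControl and 5681 to 12141 in shDCAF1. Most of that sum was FBLN1, which rose from 3172 ± 430 to 8454 ± 1854 normalized counts, while FAP and PDGFRB fell and LUM went from 20 to 38 counts to 0, so that 3 of the 5 were called lower and 1 higher. The urothelial list summed to 80636 to 110743 counts against 21842 to 36155, with 3 of its 6 genes called lower, UPK1B at 0 in shDCAF1, and 1 called higher. Most of that sum was the keratins KRT5, called lower (-4.22), and KRT7, not called (-0.70), while UPK1A had 0 to 5 counts over both groups. The breast luminal list summed to 31243 to 43432 against 59289 to 92615 counts, with 3 of 6 genes called higher and none lower, SCGB2A2 at 0 in shControl, and GATA3, which both epithelial lists hold, at 7, 1 and 0 counts against 1580, 1334 and 1873. Most of this sum was the keratins KRT8 and KRT18, and ESR1 (-0.61) and ELF3 (-0.37) were lower and not called.

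Within groups the samples were close, with replicate 1 the farthest from the others in 25 of 34 members in shControl (73.5%, beside 59.5% of all genes) and in 19 of 27 in shDCAF1 (70.4%, beside 67%). The direction of each of the 40 tested members was the same with either replicate 1 left out. Among the genes with at least 10 counts in every sample, which leaves out the members at the floor and PXDN, the same fit had 21 members, 16 of them (76.2%) called lower and 1 higher (4.76%), where 15.4% of the 13103 genes with such counts were called lower and 20.4% higher.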

How the data were processed

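Poly(A) or total RNA libraries of 6 samples (the sources used here name different kits) were sequenced, and the authors used STAR to place the reads on hg38 and Partek Flow for gene quantification. The deposited values are estimated counts per gene, neither normalized nor pooled, and each of the 21494 genes has a sum of at least 10. The values were rounded to whole counts, since the test design had been written for counts. The shDCAF1 and shControl groups, taken from the sample titles, were compared with edgeR 4.0.16 in R 4.3.3 (quasi-likelihood test, upper quartile factors at 0.75, its low-count filter at 10, Benjamini-Hochberg adjustment over 16756 genes). The study itself used the Gene Specific Algorithm, not run here. SE is the size of the log2 fold change over the root of its F statistic. Calls needed an adjusted p under 0.05 and a fold change over 2. Against a group at 0, the fold was computed against 3 counts per library and is a lower bound. Exon lengths and overlapping genes came from GENCODE 44, positions and neighbours from the deposited coordinates, and promoters from RefSeq (GRCh38.p14) for 35 of 44 members. The members, the gene lists and the roles were chosen with earlier results of these data known.

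Every member, DCAF1 and the genes of the pathway and marker lists could be named. Called members averaging 100 normalized counts or more in their higher group are given in every sample. Alternatives were TMM factors, library size alone, DESeq2 1.42.0, limma-voom (limma 3.58.1), no filter, a test against a 2-fold change (glmTreat), a block for the replicate number, a minimum of 10 counts per sample, each replicate left out, and replicates 2 and 3 summed. Simulated counts were made for 16571 genes with 200 changed by 2 on the log2 scale: edgeR recovered 100% with 0 false calls, DESeq2 100% with 0 and limma-voom 100% with 2. The changed genes were well counted, up and down in equal number, and the other genes had the same mean in both groups. Every gene had the same spread. In the data 46.4% of genes were called and many were at 0 in a group, so the simulation gives no error rate for these groups. With 3 samples a group, depth per sample was 18195926 to 26883925 counts. Of the members, 10 overlap another protein-coding gene, and strand use in counting is not stated. Proteins and sequences of the other 9 promoters were not used here.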

Additional observations from a re-analysis of the deposited data

How the results depend on the processing

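Of the 581 values of single members under the 15 alternatives, 574 kept their direction and their side of the threshold, 4 lost the call (COL13A1 and COL5A2 in the test against a 2-fold change, COL5A2 and PLOD2 with library size alone), 3 gained it (LOXL3) and 0 reversed. With at least 10 counts in every sample, the genes called went from 7778 to 4690 of 13103 (2694 higher and 1996 lower), the members to 1 higher and 16 lower of 21, the chains to 1 higher and 9 lower of 12, the enzymes called higher to 0 of 9, and the other pathway genes to 1 higher and 7 lower of 18; this filter tests fewer genes. In the test against a 2-fold change the other pathway genes called higher came to 3, and DCAF1 (-0.58) had an adjusted p of 1. DCAF1 was at -0.37 with library size alone (adjusted p = 0.0851) and at -0.46 with replicates 2 and 3 summed (adjusted p = 0.0839), and the cause was not tested. Leaving out each replicate in turn gave 29 to 31 members lower and 7 to 8 higher, and -0.82 to -0.46 for DCAF1. The median of all genes was 0.29 with library size alone, beside 0.08 with upper quartile factors.

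The groups share replicate numbers, but same-numbered samples did not deviate together (correlations -0.264, -0.132 and -0.236 over 9333 genes). With the replicate block 7686 genes were called (4031 higher, 3655 lower), with 29 members lower and 7 higher (chains 20 and 5, enzymes 9 and 2), 14 other pathway genes lower and 5 higher, and DCAF1 at -0.60. Without a filter 9575 genes were called. At this depth a count of 0 allows up to 3 counts in a sample.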
